A study of Caenorhabditis elegans with 12 samples.

Results

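*lin-22(ot267)* is an allele of the *C. elegans* gene *lin-22* that puts a stop codon at W62 in the coding sequence. Here its strain, OH4265, was set against JR667, which is wild type for *lin-22*. The members are the 6 libraries that the labels assign to OH4265 and JR667, 3 of each, among 12 libraries in all, and each library was found by the strain name in its label. RNA was sequenced from whole L3 larvae that had been synchronised by bleaching and grown for 31 hr after hatching. OH4265 is *lin-22(ot267)* IV; *vtIs1* V, where *vtIs1* is an integrated *dat-1* reporter of dopaminergic neurons with the roller marker *rol-6*. JR667 is *unc-119(e2498::Tc1)* III; *wIs51*[*SCMp::GFP* + *unc-119(+)*] V, a seam cell marker strain. These strains therefore differ by the marker transgenes and the *unc-119* background as well as by the *lin-22* allele, and neither can be told apart from the allele in this comparison. For some results 2 further strains are given beside it. In *lin-22(ot269)* (OH4271), which also carries *vtIs1*, a single base far upstream of the *lin-22* ATG is changed, and *lin-22(icb38)* (MBA81), which carries *wIs51*, has lost a stretch of the distal *lin-22* promoter, 2371 bp upstream of the ATG. Each mutant is 1 strain, and nothing says that its replicates were separate cultures. The p-values rest on the spread within strains estimated over all 12 libraries, which may be technical.

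LIN-22 belongs to the Hes-related family of basic helix-loop-helix proteins, which repress transcription and in many animals hold back neuronal fate. In the worm it acts in the seam, a row of epidermal stem cells along each side. A posterior seam cell normally makes the postdeirid, a small group of neurons that includes the dopaminergic PDE and the highly branched mechanosensory PVD. In *lin-22* mutants more anterior seam cells behave in that way too, and supernumerary neurons form. The comparison asks which transcripts differ when the LIN-22 protein is cut short.

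The library *lin-22(ot267)* replicate 3 stood apart from the others. It had 4684 rows of the count table at 0, against 2568 and 2570 in the other *lin-22(ot267)* libraries and between 2499 and 3392 in the 9 libraries of the other strains. Only 711 of its rows held 1 to 9 counts, against 2513 and 2313 in *lin-22(ot267)* replicates 1 and 2 and at least 1629 in every other library. In all, 1746 rows were at 0 in replicate 3 and held counts in both other *lin-22(ot267)* libraries, with a median of 6 counts in each, while the same number was 99 for replicate 2 and little higher for replicate 1. Rows with a mean under 30 normalised counts (counts divided by the size factor of their library) had a median SD of 79.3% of the mean in *lin-22(ot267)* and 49.2% in JR667, whereas from 1000 upwards it was 7.74% and 11.3%. Counts of calls are therefore also given without replicate 3. Among the JR667 libraries replicate 1 stood apart, with a chi-square per row of 126 and 122 against the other 2, which differed by 35.6 from each other (a value near 1 would be sampling noise alone); in *lin-22(ot267)* the values were 27.9, 41.0 and 68.8. Total counts were 66089900, 74971550 and 56479069 in *lin-22(ot267)* and between 75108956 and 76424212 in JR667.

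**Figure D1:**
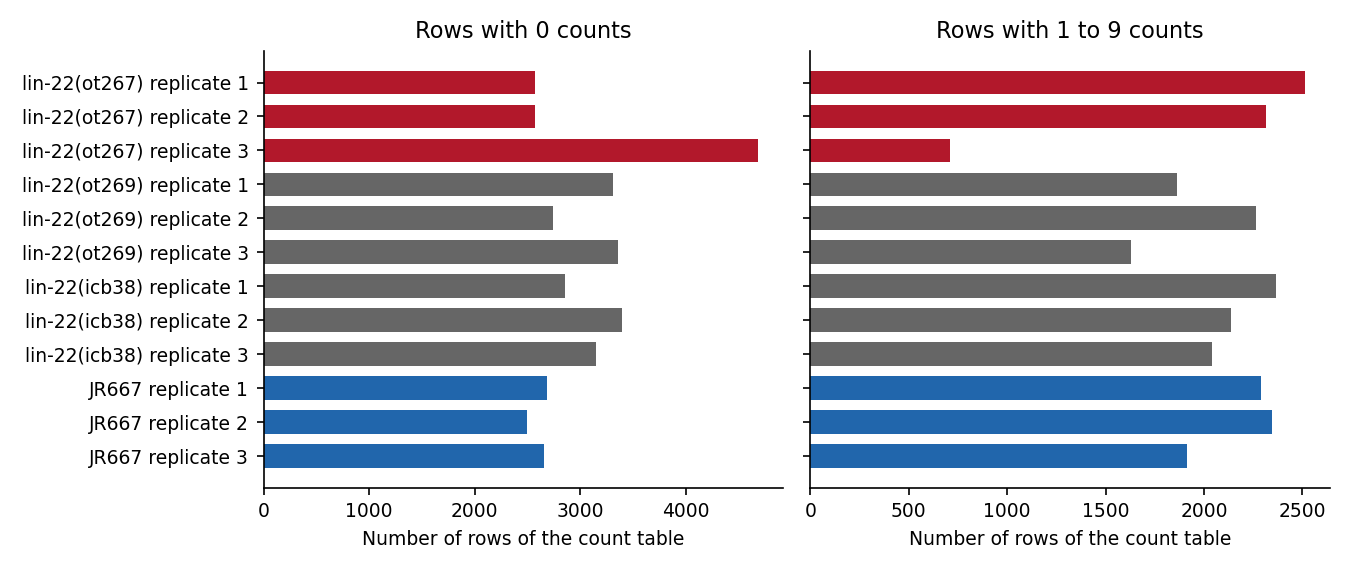
Number of rows of the count table with 0 counts (left) and with 1 to 9 counts (right) in each of the 12 libraries, with *lin-22(ot267)* in red, the upstream mutants in grey and JR667 in blue. *lin-22(ot267)* replicate 3 had 4684 rows at 0 and 711 rows with 1 to 9 counts, beyond all other libraries in both.

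The *lin-22* transcript itself (Y54G2A.1) had 356, 336 and 293 normalised counts in *lin-22(ot267)* and 342, 251 and 267 in JR667, so the libraries overlapped. Its log2 fold change was 0.20 (SE 0.271; edgeR adjusted p = 0.722) and did not pass the threshold, an adjusted p of 0.1. Since the mutation changes a codon, the transcript level does not check the genotype label. *vrp-1*, the gene upstream of *lin-22*, had 220.5, 452 and 197 normalised counts in *lin-22(ot267)* and 206, 323 and 519 in JR667 (log2 fold change -0.26, edgeR adjusted p = 0.733). The marker of the strains checks the labels only for the marker background: *unc-119*, which JR667 carries as a rescuing transgene, had 715, 895 and 739 normalised counts in *lin-22(ot267)* and 7451, 7433 and 6507 in JR667, for a log2 fold change of -3.19 ± 0.134 (SE; edgeR adjusted p = 3.3e-09). In *lin-22(ot269)*, of the same marker background, *unc-119* had 822 ± 125 normalised counts, and in *icb38* larvae it had 8882 ± 653 (SD, n = 3 each). It therefore cannot tell OH4265 from OH4271, or JR667 from MBA81. The collagen gene *rol-6*, named by the other marker, had 68346, 48128 and 68498 normalised counts in *lin-22(ot267)* and 44801, 53989.9 and 36207 in JR667 (log2 fold change 0.45, edgeR adjusted p = 0.158).

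Of the 19696 rows with enough counts to be tested, 1713 (8.7%) passed the threshold, 808 (4.1%) higher and 905 (4.59%) lower in *lin-22(ot267)* than in JR667, by edgeR's quasi-likelihood test. Scaled by library totals alone, 1366 were higher and 665 lower, so the balance of directions depends on the scaling; the median log2 fold change over all rows was 0.09 with that scaling and 0.01 with the main one. Without replicate 3 the count fell to 854 of 20105 (4.25%), with 391 higher (1.94%) and 463 lower (2.3%). Of the 1713 rows, 804 passed in both fits in the same direction, which is 46.9% of the calls with all libraries and 94.1% of those without replicate 3, and none changed sign. Differences of at least 2-fold were called in 189 rows higher and 223 lower, of which 134 and 146 were called in both fits. With 1 transcript per gene, 1437 of 16106 genes (8.92%) passed, 677 higher (4.2%) and 760 lower (4.72%); without replicate 3 it was 721 of 16501 (4.37%), 334 higher (2.02%) and 387 lower (2.35%). Without JR667 replicate 1, 550 of the 16106 genes were higher and 556 lower. These shares and numbers are the background against which the counts below are to be read.

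Of 30 genes of touch receptor neurons and of PVD, 11 were higher in *lin-22(ot267)* and 1 was lower. These neurons sense touch to the body through a channel of the DEG/ENaC family held between a special matrix outside and thick microtubules inside, and the LIM homeodomain protein MEC-3 sets their fate. Of 15 touch receptor genes tested, 6 rose and 1 fell past the threshold (median log2 fold change 0.43), against 4.2% and 4.72% over all genes and a median of 0.01. Of 18 PVD genes, 7 rose and none fell (median 0.29). The lists share 3 genes. Without replicate 3 the numbers were 6 and 1 for the touch receptor list, 5 and 0 for PVD, and without JR667 replicate 1 they were 7 and 1, and 5 and 0. RNA was taken from whole larvae, so more cells of a type and more RNA per cell cannot be told apart. Of 5 markers shared by all neurons none passed, with log2 fold changes between -0.30 and 0.08 and summed levels between 10842 and 11293 in *lin-22(ot267)*, against 10817 to 14651 in JR667.

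Among the structural genes of touch neurons, *mec-7* (ZK154.3), the β-tubulin of their microtubules, had 3823, 3167 and 3614 normalised counts in *lin-22(ot267)*, against 1863, 1992 and 1581 in JR667, for a log2 fold change of 0.96 ± 0.107 (SE; edgeR adjusted p = 0.000115). Every *lin-22(ot267)* library lay well above every JR667 library. *mec-18*, which encodes a protein related to acyl-CoA synthetases, had 791, 549 and 782 normalised counts in *lin-22(ot267)*, against 405, 349 and 279 in JR667, for a log2 fold change of 1.04 ± 0.199 (SE; edgeR adjusted p = 0.00707). The matrix genes *mec-1* and *mec-9* rose by 0.82 and 0.67 on the log2 scale (edgeR adjusted p = 0.0148 and 0.0241). *mec-1* had 393, 305 and 366 normalised counts in *lin-22(ot267)*, against 147, 223 and 231 in JR667. For *mec-9* the adjusted p from edgeR was 0.104 without replicate 3. The channel subunit gene *mec-10*, used in touch neurons and PVD, had 515, 424 and 513 normalised counts in *lin-22(ot267)*, against 249, 313 and 276 in JR667, for a log2 fold change of 0.79 ± 0.151 (SE; edgeR adjusted p = 0.00698), whereas its partner *mec-4* had 348, 269.8 and 164 normalised counts in *lin-22(ot267)*, against 196, 185 and 202 in JR667, with replicate 3 below the JR667 range. Its log2 fold change was 0.43 (edgeR adjusted p = 0.325) with all libraries and 0.67 (edgeR adjusted p = 0.093) without replicate 3. *mec-3* itself had 168, 147 and 217 normalised counts in *lin-22(ot267)*, against 106, 82.5 and 73.6 in JR667, for a log2 fold change of 1.02 ± 0.222 (SE; edgeR adjusted p = 0.0148), and its partner *unc-86*, the POU homeodomain gene that acts earlier, had 294, 229 and 326 normalised counts in *lin-22(ot267)*, against 269, 315 and 281 in JR667 (log2 fold change -0.03, edgeR adjusted p = 0.946). The genes *mec-2*, *mec-5*, *mec-6*, *mec-12*, *mec-14* and *ptl-1* had log2 fold changes between -0.12 and 0.68 and did not pass.

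One touch gene went far the other way. *mec-17*, the α-tubulin acetyltransferase of touch neurons, had 3540.1, 3541 and 2972 normalised counts in *lin-22(ot267)*, against 31929, 23835 and 26480.2 in JR667, for a log2 fold change of -3.03 ± 0.15 (SE; edgeR adjusted p = 1.8e-08). In *lin-22(ot269)* it had 3334, 2731 and 3533, close to *lin-22(ot267)* (log2 difference 0.07, edgeR adjusted p = 0.852), and in *icb38* larvae 32920.3, 42470.4 and 38849.9 (log2 difference -3.51, edgeR adjusted p = 6.02e-09). Its level was thus high in both strains with *wIs51* and low in both with *vtIs1*, as for *unc-119*, and the part of the marker in this difference was not tested.

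In PVD the largest rises were those of *deg-3* and *des-2*, which encode the subunits of an acetylcholine receptor-type channel. *deg-3* had 1974, 1918 and 2233 normalised counts in *lin-22(ot267)*, against 1097, 849.7 and 746 in JR667, for a log2 fold change of 1.19 ± 0.151 (SE; edgeR adjusted p = 0.00039). *des-2* had 2269, 2259.7 and 2355 normalised counts in *lin-22(ot267)*, against 1124, 1126 and 1065 in JR667, for a log2 fold change of 1.05 ± 0.124 (SE; edgeR adjusted p = 0.000213), and its libraries within a strain lay closer together than the strains by far. *dma-1*, the dendrite receptor that directs PVD branching, had 779.9, 763 and 749 normalised counts in *lin-22(ot267)*, against 459.9, 503 and 509 in JR667, for a log2 fold change of 0.64 ± 0.125 (SE; edgeR adjusted p = 0.0079). All 3 passed in each of the 6 fits that left out 1 library. *hpo-30*, a claudin-like gene of the higher-order branches, had 261, 234 and 420.5 normalised counts in *lin-22(ot267)*, against 176, 181 and 118 in JR667 (log2 fold change 0.94, edgeR adjusted p = 0.0807), a call that held in 1 of the 6 fits that left out 1 library, and without replicate 3 the log2 fold change was 0.64 (edgeR adjusted p = 0.342). *asic-1*, a DEG/ENaC gene of PVD and dopaminergic neurons, had 438, 531 and 721 normalised counts in *lin-22(ot267)*, against 243, 434 and 308 in JR667 (log2 fold change 0.78, edgeR adjusted p = 0.04) and was lost without replicate 3 (edgeR adjusted p = 0.196), and also without JR667 replicate 1 (edgeR adjusted p = 0.129). *sax-7*, *mnr-1* and *lect-2*, whose proteins act together as ligands of DMA-1, had log2 fold changes of 0.31, 0.26 and -0.09 and did not pass.

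Of 12 dopaminergic genes tested, 3 were higher and none lower (2 and 0 without replicate 3 and without JR667 replicate 1). *cat-2*, tyrosine hydroxylase and the first enzyme of dopamine synthesis, had 322, 336 and 369.5 normalised counts in *lin-22(ot267)*, against 198, 213 and 187 in JR667, for a log2 fold change of 0.78 ± 0.161 (SE; edgeR adjusted p = 0.0107), with no overlap and a call in each of the 6 fits that left out 1 library. *dat-1*, the dopamine transporter, had 873, 861 and 809.7 normalised counts in *lin-22(ot267)*, against 692, 619.5 and 541 in JR667, for a log2 fold change of 0.46 ± 0.123 (SE; edgeR adjusted p = 0.0427). The promoter of *dat-1* drives the *vtIs1* reporter, and whether reads from the transgene add to this count was not tested. The log2 fold change of *dat-1* was 0.49 (edgeR adjusted p = 0.0811) without replicate 3 but 0.37 (edgeR adjusted p = 0.134) without JR667 replicate 3. The log2 fold changes of the pathway genes *cat-1*, the vesicular transporter (0.39), *cat-4* (-0.17), *bas-1* (-0.05) and *ptps-1* (0.21) did not pass, nor did those of the regulators *ast-1* (-0.19) and *ceh-43* (0.19). The third gene to pass was *asic-1*.

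**Figure D2:**
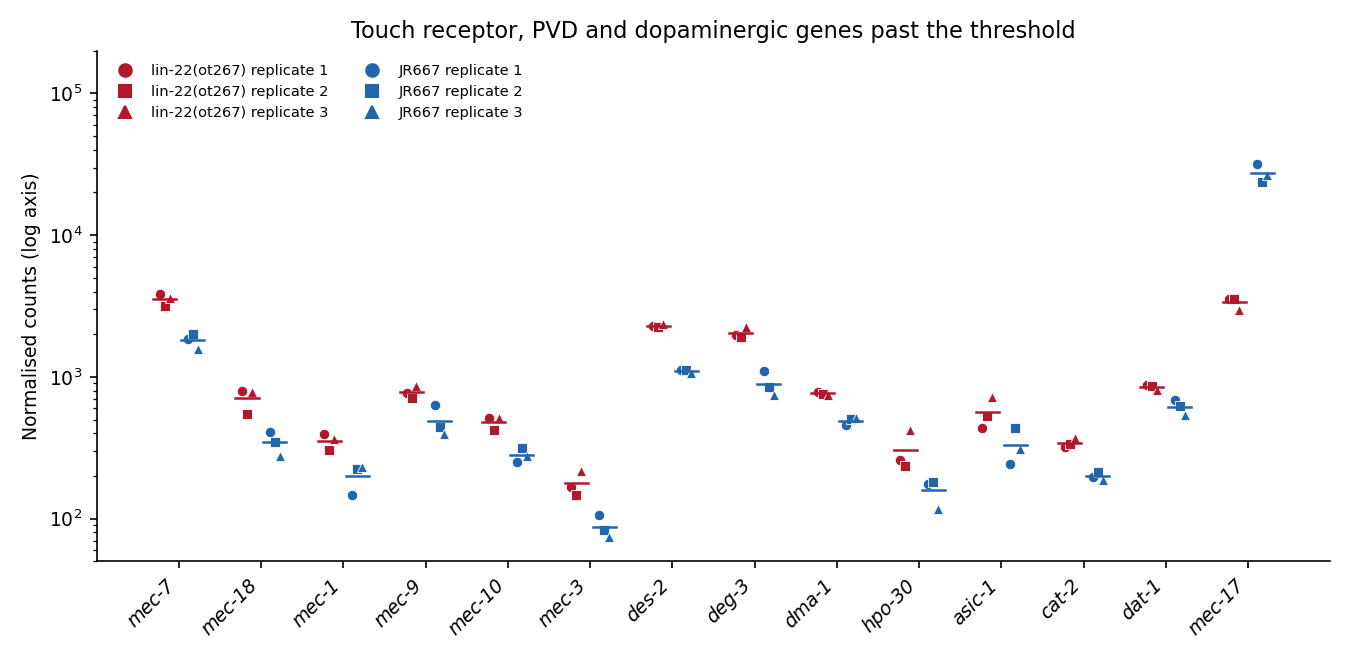
Normalised counts (log axis) of the touch receptor, PVD and dopaminergic genes past the threshold, with *lin-22(ot267)* in red on the left and JR667 in blue on the right of each gene, points for libraries (circle, square and triangle for replicates 1, 2 and 3) and lines for means. In 13 genes all *lin-22(ot267)* libraries lie above all JR667 libraries, and in *mec-17* all lie below. The genes were drawn because they passed, and the share over all genes is not given, so this separation adds no support.

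The same neuronal genes can be set beside the strain that shares *vtIs1*. Of the 30 touch receptor and PVD genes, 1 differed between *lin-22(ot267)* and *lin-22(ot269)* past the threshold and was higher in *lin-22(ot267)*, where 10.6% of all genes differed, with 4.62% higher and 6.0% lower. Against *lin-22(icb38)* 4 were higher and 4 lower, where 11.2% and 7.74% of all genes were. The gene that differed from *lin-22(ot269)* was *mnr-1*, at 2734 ± 429 normalised counts in *ot267* larvae and 1493 ± 93.3 in *ot269* larvae (SD, n = 3 each; log2 difference 0.87, edgeR adjusted p = 0.00109). *deg-3* averaged 2042 ± 168 normalised counts in *ot267* larvae, 1562 ± 60.1 in *ot269* larvae and 1817 ± 333 in *icb38* larvae, against 897 ± 180.5 in JR667 (SD, n = 3 each). *mec-7* averaged 3535 ± 335 normalised counts in *ot267* larvae, 4253 ± 72.7 in *ot269* larvae and 2042 ± 123 in *icb38* larvae, against 1812 ± 210.2 in JR667 (SD, n = 3 each), and the log2 difference of *lin-22(ot267)* minus *lin-22(icb38)* was 0.79 (edgeR adjusted p = 0.000329). *mec-18* averaged 707 ± 138, 794 ± 104 and 296 ± 69.8 in these mutants, against 344 ± 63.5 in JR667 (SD, n = 3 each). Its log2 difference from *lin-22(icb38)* was 1.26 (edgeR adjusted p = 0.000973). *mec-7* and *mec-18* were thus higher in both strains with *vtIs1* than in both with *wIs51*, whereas *deg-3* was not divided in that way. The part of the marker was not tested. *cat-2* lay below both upstream mutants, with a log2 difference of -0.51 against *lin-22(ot269)* (edgeR adjusted p = 0.0661) and -0.52 against *lin-22(icb38)* (edgeR adjusted p = 0.0423), and *dat-1* below *lin-22(icb38)*, with a log2 difference of -0.70 (edgeR adjusted p = 0.00185).

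The shares of proneural genes and of seam and epidermal regulators that passed, 12.5% and 9.52%, were not below the 8.92% of all genes. Of 8 proneural basic helix-loop-helix genes tested, only *hlh-2*, the common partner of the family, passed, with 684, 546 and 595 normalised counts in *lin-22(ot267)*, against 384, 516 and 417 in JR667 (log2 fold change 0.47, edgeR adjusted p = 0.0753), and it did not pass without replicate 3 (edgeR adjusted p = 0.156) or without JR667 replicate 1 (edgeR adjusted p = 0.203). *lin-32*, of the atonal type, had 36.1, 21.6 and 5.79 normalised counts in *lin-22(ot267)*, against 24.9, 13.4 and 7.36 in JR667, and *hlh-14*, of the achaete-scute type, 4.12, 5.4 and 6.95 normalised counts in *lin-22(ot267)*, against 8.31, 1.92 and 5.52 in JR667. With standard errors of 0.656 and 0.725 on the log2 scale, a 2-fold change in either was not detectable at this depth. Of the Hes-related genes only *lin-22* and *ref-1* were tested, and *ref-1* did not pass (log2 fold change 0.21, edgeR adjusted p = 0.626). Of 21 seam and epidermal regulators, *nhr-25*, an Ftz-F1 type nuclear receptor of the epidermis, rose with 1586, 1487 and 1409.8 normalised counts in *lin-22(ot267)*, against 797, 1128 and 981 in JR667 (log2 fold change 0.63, edgeR adjusted p = 0.00673), and *elt-3*, an epidermal GATA factor, fell with 1854, 1825 and 1310.2 normalised counts in *lin-22(ot267)*, against 2479, 2227 and 2083 in JR667 (log2 fold change -0.44, edgeR adjusted p = 0.0664; edgeR adjusted p = 0.239 without replicate 3 and 0.164 without JR667 replicate 1). None of 15 heterochronic genes, which time larval stages, and none of 28 Wnt pathway genes passed, though without JR667 replicate 1 there was 1 call in each (lower and higher). In the Wnt pathway the 5 ligand genes had a median log2 fold change of -0.21, the 8 receptor or secretion genes of 0.12 and the 15 intracellular genes of 0.12. Of the 25 moulting genes 1 rose (*nhr-25* again) and 1 fell (*pan-1*, log2 fold change -0.33, edgeR adjusted p = 0.0689; edgeR adjusted p = 0.204 without replicate 3), and none of the 6 Hox genes passed.

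Of 20 collagens named for their effect on body shape, 8 were lower in *lin-22(ot267)* and none higher (5 and 0 without replicate 3, and 5 and 0 without JR667 replicate 1). The blister genes, whose products form the struts or other parts of the adult cuticle, had the largest falls among them. *bli-1* had 242, 985 and 181 normalised counts in *lin-22(ot267)*, against 1486, 5407 and 10298 in JR667, for a log2 fold change of -3.60 ± 0.632 (SE; edgeR adjusted p = 0.00415). *bli-2* had 387, 779.6 and 483 normalised counts in *lin-22(ot267)*, against 1659, 3666 and 6875 in JR667, for a log2 fold change of -2.88 ± 0.41 (SE; edgeR adjusted p = 0.000932), and *bli-6* had 24.7, 232 and 0 normalised counts in *lin-22(ot267)*, against 678, 2156 and 4205 in JR667, for a log2 fold change of -4.72 ± 0.87 (SE; edgeR adjusted p = 0.00572). No library overlapped between the strains in these 3 genes, but both strains varied several-fold among their own libraries, with JR667 replicate 1 lowest and replicate 3 highest each time. All 3 genes also passed without replicate 3 (edgeR adjusted p = 0.028, 0.00997 and 0.0162). Collagens of the *col* family with the same layout were *col-175*, with 8.24, 84.5 and 0 normalised counts in *lin-22(ot267)*, against 466, 1492 and 3119 in JR667 (log2 fold change -5.68, edgeR adjusted p = 0.00121), and *col-38*, with 472, 702 and 696 normalised counts in *lin-22(ot267)*, against 1326, 3317 and 6565 in JR667 (log2 fold change -2.58, edgeR adjusted p = 0.00243). *col-63* had 58.7, 76.4 and 75.3 normalised counts in *lin-22(ot267)*, against 27.7, 485 and 1659 in JR667; its strains overlapped, and the call (log2 fold change -3.36, edgeR adjusted p = 0.0309) was lost without replicate 3 (log2 fold change -3.41, edgeR adjusted p = 0.123) and without JR667 replicate 3 (edgeR adjusted p = 0.177). *col-49* was lost in the same way. *bli-1* averaged 469 ± 447 normalised counts in *ot267* larvae, 164 ± 32 in *ot269* larvae and 134 ± 36 in *icb38* larvae (SD, n = 3 each), and *lin-22(ot267)* was higher than *lin-22(icb38)* past the threshold (log2 difference 1.82, edgeR adjusted p = 0.0842) but not than *lin-22(ot269)* (log2 difference 1.53, edgeR adjusted p = 0.19).

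*col-115* had 4770.3, 3965 and 6035 normalised counts in *lin-22(ot267)*, against 31426, 35112 and 44878 in JR667, for a log2 fold change of -2.92 ± 0.168 (SE; edgeR adjusted p = 6.36e-08), and *col-58* had 3928, 3513 and 3771 normalised counts in *lin-22(ot267)*, against 11498, 9626 and 13274 in JR667, for a log2 fold change of -1.62 ± 0.117 (SE; edgeR adjusted p = 1.02e-06). *col-115* was also high in *icb38* larvae, at 34489 ± 2715, and low in *ot269* larvae, at 3142 ± 301 (SD, n = 3 each), which again divides the strains by marker. Over the *col* family 8 of 134 genes rose and 13 fell (6 and 10 without replicate 3). The annular furrow collagens, which shape the circular furrows of the cuticle and whose loss shortens the worm, fell in 4 of 6 cases, with log2 fold changes of -0.61 for *dpy-9*, -0.61 for *dpy-3*, -0.59 for *dpy-2* and -0.48 for *dpy-10*. *dpy-2* had 17545, 13063 and 16889.5 normalised counts in *lin-22(ot267)*, against 28510.2, 25964 and 17168 in JR667 (log2 fold change -0.59, edgeR adjusted p = 0.0413), so JR667 replicate 3 lay among the *lin-22(ot267)* libraries. Only *dpy-2* of the 6 furrow genes passed without replicate 3, and only *dpy-9* without JR667 replicate 1. *dpy-17* fell on the log2 scale by 0.72 with all libraries (edgeR adjusted p = 0.0433) and by 1.01 without replicate 3 (edgeR adjusted p = 0.00578). Its call held in 3 of the 6 fits that left out 1 library, and not without *lin-22(ot267)* replicate 1 (edgeR adjusted p = 0.141). Of 5 epidermis markers 1 was lower (*elt-3*), and their summed level was between 23712 and 26406 normalised counts in *lin-22(ot267)*, against 24816 to 34494 in JR667; its part in the collagen values was not tested.

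**Figure D3:**
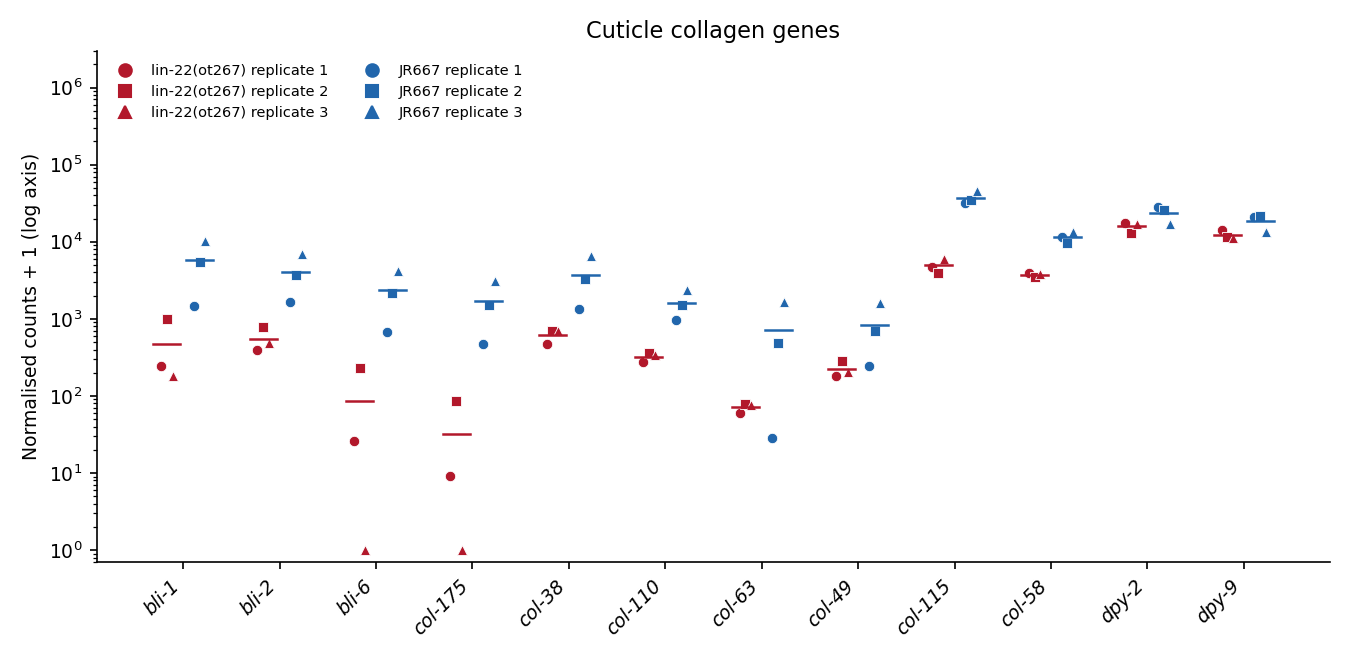
Normalised counts plus 1 (log axis) of cuticle collagen genes, with *lin-22(ot267)* in red on the left and JR667 in blue on the right of each gene, points for libraries and lines for means. The JR667 libraries of *bli-1* spread between 1486 and 10298 normalised counts, whereas those of *col-115* and *col-58* lie close together.

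Several of the largest falls lay in a run of neighbours on chromosome V. From *srbc-15* to C01B4.6 there were 24 tested genes in a row in the order of the RefSeq annotation (WBcel235), of which 21 were lower, none was higher and 3 did not pass, with a median log2 fold change of -1.85; without replicate 3, 20 were lower. The longest stretches of neighbours that all passed were of 10 and 9 genes and lay in this run, the next were of 6, and 1031 called genes had no called neighbour. Several genes of the longest stretches had nearly equal values in the same order, such as *clec-209* and F56A4.2 (log2 fold changes -3.57 and -3.58). Where these are copies that share reads, the counts of genes in the run include the same change more than once. In the densest block of 25 tested genes on chromosome V 21 were called, against 12 on chromosomes II and IV, 10 on X, 8 on I and 6 on III, and a median of 2 per block on each. Chromosome V also had the largest share of its genes called, 12.1%, against 6.43% to 9.29% on the others. Past C01B4.6, beyond *srd-61* and *str-258*, which did not pass, Y45G12C.16 and Y45G12C.4 were lower too (log2 fold changes -1.37 and -2.76, edgeR adjusted p = 1.26e-05 and 0.0281). C01B4.6 is therefore the end of the run as drawn here and need not be the edge of the changed region.

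*srbc-15* (F15E11.10), a chemoreceptor gene, had the largest fall of all. Its *lin-22(ot267)* libraries held 4 counts in all and its JR667 libraries 3033, which scales to a level of 0.144% of that in JR667 (95% exact interval from counting error alone 0.0392% to 0.369%). Per library that was 2.06, 1.8 and 0 normalised counts in *lin-22(ot267)*, against 866, 1017 and 952 in JR667. *irld-35*, of the family of insulin/EGF receptor-like domain genes, had 7.21, 18 and 11.6 normalised counts in *lin-22(ot267)*, against 655, 1162 and 975 in JR667, and *irld-53* had 20.6, 32.4 and 11.6 normalised counts in *lin-22(ot267)*, against 651, 1007 and 916 in JR667 (log2 fold changes -6.21 and -5.27, edgeR adjusted p = 3.1e-08 and 3.56e-08). The C-type lectin gene *clec-209* had 2343, 2448 and 1974 normalised counts in *lin-22(ot267)*, against 22682, 25691 and 32112 in JR667, for a log2 fold change of -3.57 ± 0.164 (SE; edgeR adjusted p = 8.51e-09). F56A4.2, which lies farther along, had almost the same counts (2475, 2517 and 1764 normalised counts in *lin-22(ot267)*, against 22958, 25545 and 32453 in JR667). The transporter genes *mct-1* and *mct-2* fell, with log2 fold changes of -1.55 and -1.48 (edgeR adjusted p = 0.000348 and 0.000318). Where such neighbours are near-identical copies, the counting can divide reads between them, so their single values are uncertain and they are not separate observations.

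Along this run 8 of the 24 genes differed between *lin-22(ot267)* and *lin-22(ot269)*, where 10.6% of all genes did, and the log2 differences went both ways around a median of -0.07. Against *lin-22(icb38)* the median log2 difference was -1.85, and 21 genes were lower. *srbc-15* had 9.57, 1.93 and 2.96 normalised counts in *ot269* larvae and 568, 494 and 667 in *icb38* larvae. *srbc-15*, *irld-53*, *irld-35*, *clec-209* and F56A4.2 were lower in both strains with *vtIs1* than in both with *wIs51*, both of which are integrated on chromosome V, and the *lin-22* allele cannot be told apart from them here. F56A4.4 and F56A4.5 did not divide the strains in that way. F56A4.4 averaged 20.3 ± 4.45 normalised counts in *ot267* larvae and 0.659 ± 1.14 in *ot269* larvae, against 22.4 ± 13.2 in JR667 (SD, n = 3 each; edgeR adjusted p = 0.0062 between *lin-22(ot267)* and *lin-22(ot269)*, and 0.925 against JR667). F56A4.5 averaged 3.09 ± 1.85 in *ot267* larvae and 27.2 ± 13.3 in *ot269* larvae, against 21.9 ± 5.71 in JR667 (SD, n = 3 each; log2 difference of *lin-22(ot267)* minus *lin-22(ot269)* -3.09, edgeR adjusted p = 0.015). F56A4.3 had 2107, 2406 and 1908 normalised counts in *ot267* larvae and 3854, 4016 and 4291 in *ot269* larvae, against 4379.9, 5868 and 4322 in JR667 (log2 difference of *lin-22(ot267)* minus *lin-22(ot269)* -0.92, edgeR adjusted p = 0.00126), and Y19D10A.4 had 279, 222 and 227 normalised counts in *ot267* larvae and 355, 419.5 and 339 in *ot269* larvae, against 1066, 1109 and 1073 in JR667 (log2 difference of *lin-22(ot267)* minus *lin-22(ot269)* -0.61, edgeR adjusted p = 0.00776).

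**Figure D4:**
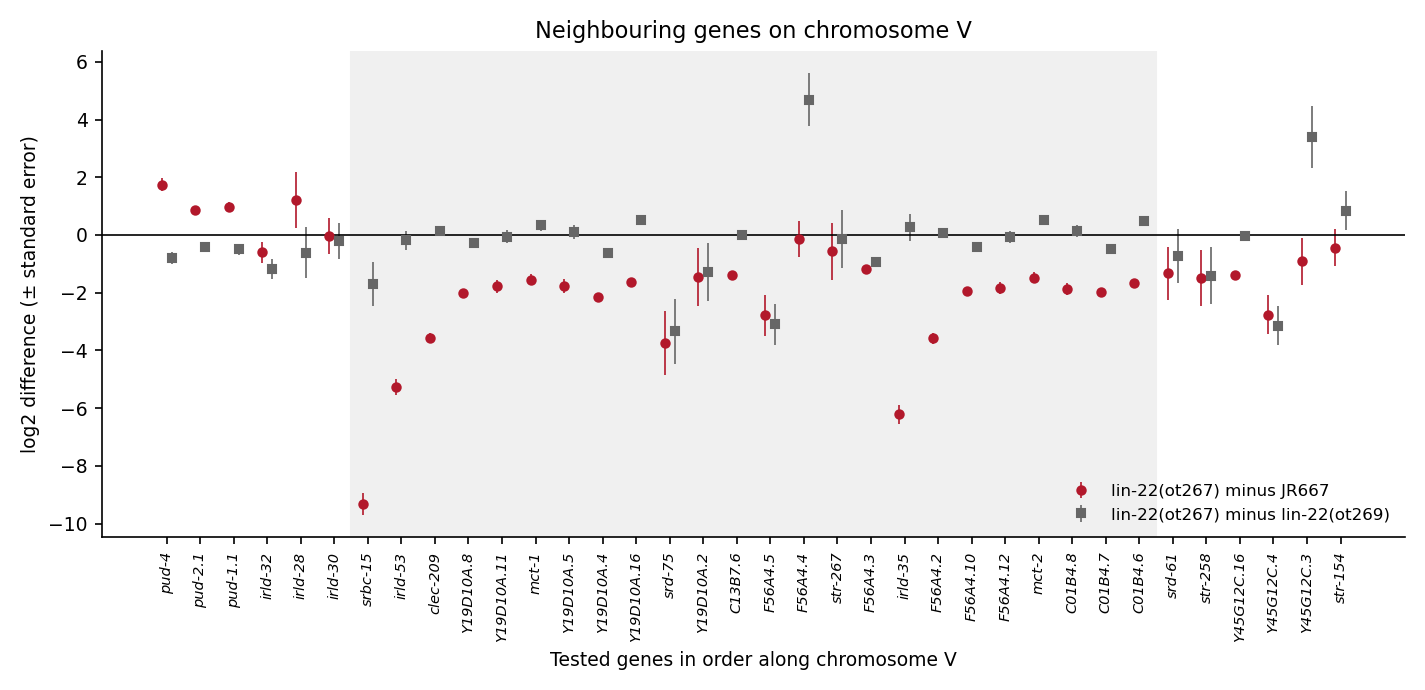
The log2 difference and its standard error for tested genes in their order along chromosome V, with *lin-22(ot267)* minus JR667 in red and *lin-22(ot267)* minus *lin-22(ot269)* in grey, and the run from *srbc-15* to C01B4.6 shaded. The red points of the run have a median of -1.85 and the grey ones of -0.07, with 8 of the 24 genes differing between *lin-22(ot267)* and *lin-22(ot269)*.

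On its other side, beyond 3 genes that did not pass, lie the *pud* genes, named for proteins that are more abundant in *daf-2* insulin receptor mutants, of which 6 in a row were higher in *lin-22(ot267)*. *pud-3* had 9048, 10049.6 and 9831 normalised counts in *lin-22(ot267)*, against 3323, 2158 and 1925 in JR667, for a log2 fold change of 1.97 ± 0.233 (SE; edgeR adjusted p = 0.000222), and *pud-4* had 5025, 4962 and 5649.5 normalised counts in *lin-22(ot267)*, against 2068, 1389 and 1246 in JR667, for a log2 fold change of 1.73 ± 0.224 (SE; edgeR adjusted p = 0.000423). The pairs *pud-1.1* and *pud-1.2*, and *pud-2.1* and *pud-2.2*, had nearly equal counts within each pair, rose by 0.86 to 0.98 on the log2 scale and may share reads. *pud-3* was lower than in *ot269* larvae (log2 difference -1.06, edgeR adjusted p = 0.0105) and higher than in *icb38* larvae (log2 difference 2.11, edgeR adjusted p = 8.12e-05). A second run of 6 on chromosome V held *ugt-10*, *ugt-67*, *ugt-8*, *ugt-14* and *ugt-13*, all lower, and H23N18.5, which was higher. Of these, H23N18.5 did not pass without replicate 3 (edgeR adjusted p = 0.153), nor *ugt-67* without JR667 replicate 1 (edgeR adjusted p = 0.188). On chromosome II a run of 6 held *gbh-2*, a gamma-butyrobetaine hydroxylase of carnitine synthesis, with 1686, 1573 and 1729 normalised counts in *lin-22(ot267)*, against 3878, 3637 and 4335 in JR667 (log2 fold change -1.25, edgeR adjusted p = 0.000114), and *lact-4*, with 1912, 1845 and 1873 normalised counts in *lin-22(ot267)*, against 4504, 3098 and 3263 in JR667 (log2 fold change -0.95, edgeR adjusted p = 0.00103).

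Of 184 genes of detoxification tested, 32 were lower in *lin-22(ot267)* (17.4%) and 8 higher, against 4.72% and 4.2% over all genes; without replicate 3 it was 18 and 4, and without JR667 replicate 1 it was 19 and 11. Of the 73 cytochrome P450 genes, which oxidise foreign compounds and lipids, 14 fell and 2 rose, and of the 67 UDP-glucuronosyltransferase genes, which conjugate them, 17 fell and 4 rose (8 and 2, and 10 and 2, without replicate 3; 8 and 2, and 11 and 7, without JR667 replicate 1). Of 44 glutathione S-transferase genes 1 fell and 2 rose, which was none and none without replicate 3, and none and 2 without JR667 replicate 1. *ugt-13* had 3274, 4339 and 3264 normalised counts in *lin-22(ot267)*, against 8182, 7979 and 8376 in JR667, for a log2 fold change of -1.17 ± 0.142 (SE; edgeR adjusted p = 0.000263). *cyp-35A4* had 1737, 1351 and 1666 normalised counts in *lin-22(ot267)*, against 2786, 2656 and 3335 in JR667 (log2 fold change -0.89, edgeR adjusted p = 0.00146), and *cyp-33C8* and *cyp-25A3* fell, with log2 fold changes of -0.87 and -0.82 (edgeR adjusted p = 0.000738 and 0.00205). Among the few that rose, *cyp-14A5* had 8577, 8971 and 8766 normalised counts in *lin-22(ot267)*, against 5435, 3691 and 3673 in JR667 (log2 fold change 1.04, edgeR adjusted p = 0.000936). Nuclear hormone receptor genes, several of which control such enzymes, had 24 lower and 13 higher of 233 (17 and 9 without replicate 3). *nhr-57* had 281, 238 and 169 normalised counts in *lin-22(ot267)*, against 499, 550.5 and 469 in JR667 (log2 fold change -1.14, edgeR adjusted p = 0.00182), and *nhr-17* had 1236, 1032 and 966 normalised counts in *lin-22(ot267)*, against 3152, 2113 and 1696 in JR667 (log2 fold change -1.11, edgeR adjusted p = 0.00253).

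Of 23 genes of fat metabolism 3 rose and 1 fell (2 and 1 without replicate 3, and 1 and 1 without JR667 replicate 1). *fat-5*, the desaturase that acts on palmitate, had 1079, 1127 and 1590.5 normalised counts in *lin-22(ot267)*, against 306, 397 and 213 in JR667, for a log2 fold change of 2.05 ± 0.286 (SE; edgeR adjusted p = 0.000799). *acs-2*, an acyl-CoA synthetase that feeds fatty acids to mitochondrial oxidation, had 2448, 1812 and 1287 normalised counts in *lin-22(ot267)*, against 7545, 9528 and 14244 in JR667, for a log2 fold change of -2.50 ± 0.315 (SE; edgeR adjusted p = 0.000348). Neither overlapped, and both passed in each of the 6 fits that left out 1 library. The paralogous desaturases *fat-6* and *fat-7* had log2 fold changes of 0.08 and -0.44 and did not pass. The regulators *sbp-1*, the worm SREBP, and *nhr-66* rose by 0.42 and 0.39 on the log2 scale (edgeR adjusted p = 0.0809 and 0.0687), and *nhr-49* was at -0.07. Without replicate 3 *nhr-66* had an edgeR adjusted p of 0.0849 and *sbp-1* of 0.146, and without JR667 replicate 1 they had 0.16 and 0.208. None of the 6 vitellogenin (yolk) genes passed, with log2 fold changes between -2.66 and -0.62, and 1 was lower without JR667 replicate 1.

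The calls among stress genes depended on single libraries. Their median log2 fold change was -0.20 with all libraries, -0.17 without *lin-22(ot267)* replicate 3 and -0.24 without JR667 replicate 1. Of 20 tested, 7 were lower and none higher, but 1 was lower without *lin-22(ot267)* replicate 3 and 1 without JR667 replicate 1, the same gene in both, *dod-22* (log2 fold change -0.64, edgeR adjusted p = 0.0223). The small heat shock gene *hsp-16.2* had 522, 418 and 383 normalised counts in *lin-22(ot267)*, against 3097, 1016 and 667 in JR667, so JR667 replicate 1 held about 3 times as much as the next library. Its log2 fold change of -1.85 (edgeR adjusted p = 0.0261) was -0.93 (edgeR adjusted p = 0.12) without JR667 replicate 1 and -1.76 (edgeR adjusted p = 0.127) without replicate 3. *hsp-16.1*, *hsp-16.41* and *hsp-70* had the same layout, and *hsp-16.1* and *hsp-16.48*, like other copies of the family, may share reads. *hsp-70* had 757, 745 and 409 normalised counts in *lin-22(ot267)*, against 3319, 1423 and 996 in JR667 (log2 fold change -1.58, edgeR adjusted p = 0.0319).

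Of 29 *nas* genes, which encode astacin metalloproteases, 4 rose and none fell (3 and 0 without replicate 3, and 5 and 0 without JR667 replicate 1). *nas-38* had 5982, 5228 and 6606 normalised counts in *lin-22(ot267)*, against 2141, 2632 and 3098 in JR667, for a log2 fold change of 1.18 ± 0.138 (SE; edgeR adjusted p = 0.000205), and *nas-27* had 977, 1298 and 1012 normalised counts in *lin-22(ot267)*, against 308, 329.9 and 329 in JR667, for a log2 fold change of 1.76 ± 0.232 (SE; edgeR adjusted p = 0.000488). Of 75 hedgehog-related and patched-related genes 10 rose (13.3%) and 3 fell (7 and 2 without replicate 3). *grd-11* had 383, 216 and 372 normalised counts in *lin-22(ot267)*, against 125, 131 and 80 in JR667 (log2 fold change 1.53, edgeR adjusted p = 0.00706) and *wrt-8* had 1573, 1249 and 1404 normalised counts in *lin-22(ot267)*, against 795, 727 and 681 in JR667 (log2 fold change 0.94, edgeR adjusted p = 0.0047), whereas *ptr-22* had 518, 415 and 559.5 normalised counts in *lin-22(ot267)*, against 981, 1568 and 1687 in JR667 (log2 fold change -1.51, edgeR adjusted p = 0.00143). *ptr-10*, a patched-related gene of glia, fell by 0.63 on the log2 scale (edgeR adjusted p = 0.0116).

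Antimicrobial genes went both ways, with 8 higher and 6 lower of 71 (7 and 1 without replicate 3, and 7 and 3 without JR667 replicate 1). *lys-7*, a lysozyme of the intestine, had 4476, 5006 and 3395 normalised counts in *lin-22(ot267)*, against 2267, 2631 and 2375 in JR667, for a log2 fold change of 0.82 ± 0.153 (SE; edgeR adjusted p = 0.00591). It was higher still in *lin-22(ot269)*, at 23159, 18125 and 18747 (log2 difference of *lin-22(ot267)* minus *lin-22(ot269)* -2.22, edgeR adjusted p = 1.06e-06). The caenacin gene *cnc-2* had 184, 168 and 205 normalised counts in *lin-22(ot267)*, against 86.8, 75.8 and 47.8 in JR667 (log2 fold change 1.40, edgeR adjusted p = 0.0117), and *thn-1*, of the thaumatin family, 87.6, 178 and 88 normalised counts in *lin-22(ot267)*, against 8.31, 25.9 and 5.52 in JR667 (log2 fold change 3.15, edgeR adjusted p = 0.00357), while *fipr-24* fell by 1.92 on the log2 scale (edgeR adjusted p = 0.0118). Of 147 C-type lectin genes 15 rose and 10 fell (13 and 8 without replicate 3).

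Among channel genes of the DEG/ENaC, acetylcholine receptor and related families 7 of 90 rose and none fell, but 2 rose without replicate 3. *acr-23*, a betaine receptor of mechanosensory neurons and muscle, had 277, 189 and 277 normalised counts in *lin-22(ot267)*, against 117, 147 and 91 in JR667 (log2 fold change 1.06, edgeR adjusted p = 0.00856), and *del-2* had 288, 254 and 503 normalised counts in *lin-22(ot267)*, against 205, 187 and 151 in JR667 (log2 fold change 0.94, edgeR adjusted p = 0.0221). Of 131 neuropeptide and insulin genes 5 rose and 5 fell (1 and 2 without replicate 3, and 8 and 3 without JR667 replicate 1). *flp-8* fell with 353, 339.9 and 385 normalised counts in *lin-22(ot267)*, against 866, 587 and 520.5 in JR667, and *flp-17* with 790.2, 688 and 927 normalised counts in *lin-22(ot267)*, against 1779, 1345 and 1179.8 in JR667 (log2 fold changes -0.87 and -0.84, edgeR adjusted p = 0.00824 and 0.00866), and *nlp-34*, an epidermal peptide gene, rose with 2048, 1689 and 1674 normalised counts in *lin-22(ot267)*, against 1070.3, 762 and 817 in JR667 (log2 fold change 1.03, edgeR adjusted p = 0.00323). *daf-16*, the FOXO factor of insulin signalling, rose by 0.50 on the log2 scale (edgeR adjusted p = 0.00974), alone of 12 insulin and dauer genes.

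**Figure D5:**
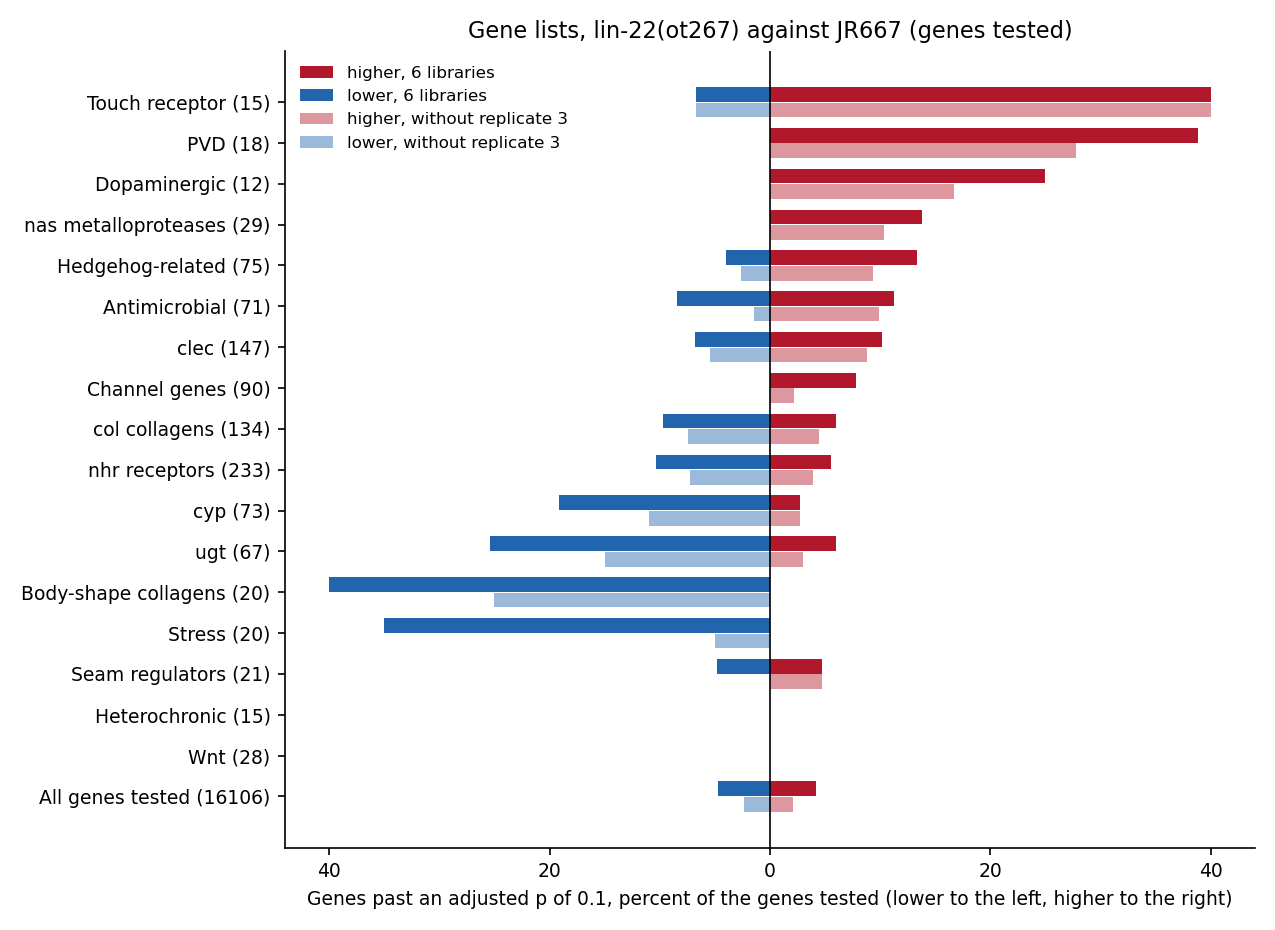
Share of the genes tested in each list that were past an adjusted p of 0.1, higher in *lin-22(ot267)* to the right (red) and lower to the left (blue), with all 6 libraries (dark) and without *lin-22(ot267)* replicate 3 (light), and the number of genes tested beside each name. The touch receptor list had 6 of 15 genes higher and the body-shape collagens 8 of 20 lower, against 4.2% and 4.72% of all genes.

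Of 394 chemoreceptor genes 6 rose and 7 fell, of 212 F-box genes 11 rose and 4 fell, of 66 MATH domain genes 6 rose and 1 fell, and of 63 *abu* and *pqn* genes 3 rose and 1 fell; without replicate 3 these were 2 and 3, 6 and 3, 1 and 1, and 1 and 0, and without JR667 replicate 1 they were 6 and 4, 9 and 3, 3 and 1, and 1 and 0. Of 29 *irld* genes the 2 named above fell. Of 54 *ceh* homeobox genes 1 rose (*ceh-83*, log2 fold change 1.37, edgeR adjusted p = 0.0298), and of 29 germ line genes 1 rose (*nos-2*, log2 fold change 1.85, edgeR adjusted p = 0.0966), and neither passed without replicate 3. Of 40 sperm genes 2 rose and 3 fell (1 and 1 without replicate 3). Ribosomal protein genes, of which 2 of 62 fell and none without replicate 3 or without JR667 replicate 1, had negative log2 fold changes in 61 cases with a median of -0.28, which was -0.18 without replicate 3 and -0.14 without JR667 replicate 1. Markers of body wall muscle, pharynx, intestine, germ line, sperm and the excretory system had no member past the threshold, while epidermis had 1 lower (*elt-3*) and glia 1 lower (*ptr-10*). The summed germ line markers lay between 44123 and 48309 normalised counts in *lin-22(ot267)* and between 26900 and 48509 in JR667. Of 4 sperm markers 3 were at 0 in *lin-22(ot267)* replicate 3, and the sums were between 13.9 and 89.6 in *lin-22(ot267)* and between 48.0 and 198 in JR667.

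The largest rises with at least 100 normalised counts in *lin-22(ot267)*, no overlap and a call with and without replicate 3 were led by *thn-1*, C38D9.2 and *srlf-34*. C38D9.2 had 761, 567 and 774 normalised counts in *lin-22(ot267)*, against 48, 97.8 and 97.5 in JR667, for a log2 fold change of 3.11 ± 0.277 (SE; edgeR adjusted p = 1.09e-05), and *srlf-34* had 5861, 6123 and 6901 normalised counts in *lin-22(ot267)*, against 1179, 606 and 482 in JR667, for a log2 fold change of 3.06 ± 0.288 (SE; edgeR adjusted p = 1.84e-05). C27B7.9, C55C3.3, C38D9.5, T28A11.19, B0511.11, *spig-20*, *clec-247* and T22B7.7 rose by 2.16 to 3.03 on the log2 scale. B0511.11 had 834, 926 and 1068 normalised counts in *lin-22(ot267)*, against 209.6, 121 and 157 in JR667 (log2 fold change 2.53, edgeR adjusted p = 1.03e-06). Among the falls of the same kind outside chromosome V were *dod-21* on chromosome IV, with 45.3, 12.6 and 27.8 normalised counts in *lin-22(ot267)*, against 741, 222 and 389 in JR667, and its neighbour *cld-1*, with 63.9, 12.6 and 44 normalised counts in *lin-22(ot267)*, against 838, 292 and 345 in JR667 (log2 fold changes -3.99 and -3.63, edgeR adjusted p = 0.000486 and 0.0014). *dod-21* averaged 74.7 ± 30.3 in *ot269* larvae and 720 ± 322 in *icb38* larvae, and *cld-1* 86.7 ± 35.1 and 795 ± 401 (SD, n = 3 each), which again divides the strains by marker. Y51H7C.1 and Y71G12B.18 fell, with log2 fold changes of -4.21 and -4.09 (edgeR adjusted p = 0.0109 and 0.00354). Y71G12B.18 was below JR667 in *icb38* larvae too, at 38.3 ± 28.8 against 213 ± 135 (SD, n = 3 each). On chromosome V, *dmsr-14*, of a family of peptide receptors, had 4.12, 3.6 and 0 normalised counts in *lin-22(ot267)*, against 88.6, 123 and 103 in JR667 (log2 fold change -5.22, edgeR adjusted p = 0.000755), and *gtnt-17* fell by 4.25 on the log2 scale (edgeR adjusted p = 0.00866).

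Some genes set *lin-22(ot267)* apart from every other strain. Against *lin-22(ot269)* 1956 of 19696 rows differed (9.93%), of which 847 (4.3%) were higher and 1109 (5.63%) lower, and against *lin-22(icb38)* 3563 (18.1%), of which 2005 (10.2%) were higher and 1558 (7.91%) lower. Of 16235 genes and repeat families, 164 (1.01%) passed the threshold in the same direction against JR667, *lin-22(ot269)* and *lin-22(icb38)*, 62 higher and 102 lower. These comparisons share the *lin-22(ot267)* libraries. In 142 of the 164 the *lin-22(ot267)* libraries did not overlap any of the 9 others. Genes chosen by these calls tend to separate in that way, and the share over all genes is not given, so the count adds no support. The differences from JR667 also passed without replicate 3 in 38 of the higher and 56 of the lower genes. These genes were looked for after the other results were known. T04A8.13 had 39.2, 64.7 and 4.63 normalised counts in *ot267* larvae, 377, 406 and 403 in *ot269* larvae and 431, 442 and 318 in *icb38* larvae, against 472, 414 and 392 in JR667. The log2 differences of *lin-22(ot267)* were -3.40 from *lin-22(ot269)*, -3.40 from *lin-22(icb38)* and -3.51 from JR667. *sqrd-1*, a sulfide:quinone oxidoreductase of mitochondria, had 181, 153 and 140.2 normalised counts in *ot267* larvae, 436, 285 and 441 in *ot269* larvae and 391, 444 and 399.9 in *icb38* larvae, against 565, 370.2 and 570.1 in JR667. *irg-5*, an infection response gene, had 1914, 1316 and 1824 normalised counts in *ot267* larvae, 5414, 3908 and 5457 in *ot269* larvae and 6294, 7139 and 7536 in *icb38* larvae, against 5202, 3377 and 6119.6 in JR667. In the other direction *cest-34*, a carboxylesterase gene, had 625, 653 and 549 normalised counts in *ot267* larvae, 240.3, 185 and 158 in *ot269* larvae and 137, 261 and 149 in *icb38* larvae, against 265, 180.3 and 166 in JR667, so that each *lin-22(ot267)* library held more than 2 times any other. *nhr-57*, lower than in JR667 as given above, was also lower than in *lin-22(ot269)* (log2 difference -0.79, edgeR adjusted p = 0.0145) and *lin-22(icb38)* (log2 difference -1.05, edgeR adjusted p = 0.0015).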

How the data were processed

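The authors sequenced polyadenylated RNA of 12 libraries from whole L3 larvae, mapped the reads with Bowtie2 and counted them per transcript with bedtools, per the labels and the study's methods; versions, genome build and the strand setting are not given in the sources used here. The deposited counts are whole numbers of reads per row, not normalised, and were used as deposited; the second deposited table, in which 0 had been replaced before scaling, was not used. Of 23953 rows, 23768 were transcripts of 20185 genes, 23130 matched RefSeq (WBcel235, used for names and gene order alone), 185 named repeat families or other features, and 848 were 0 in all libraries. No per-sample column was left out. Reads carry no molecular identifiers, so intervals and floors cover counting error only.

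Rows with a count of at least 10 in enough libraries (filterByExpr) were tested with edgeR 4.0.16 in R 4.3.3 (RLE size factors, quasi-likelihood test, 1 coefficient per strain over the 12 libraries, Benjamini-Hochberg adjusted p held to 0.1); a separate exact test of 3 libraries against 3 cannot go below 0.1. Alternatives were TMM or total scaling, other filters, 6 libraries alone, a replicate block, DESeq2 1.42.0, a threshold of 0.05 and each library left out. The script was tested on simulated data. For a gene with several transcripts the one with the highest mean count was taken. Genes were named where they were *lin-22*, its neighbours or marker genes, among the 12 largest rises or falls called with and without *lin-22(ot267)* replicate 3, among the 5 smallest p in a list, among the 6 largest changes called only with replicate 3, or in the longest runs; values of list members that did not pass are given as such. The members and lists were chosen with earlier results of these data known.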

Additional observations from a re-analysis of the deposited data

Results flagged for a closer look

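For *fat-5* the strains with *vtIs1* differed from one another. Its rise over JR667 was larger in *ot269* larvae than in *ot267* larvae: *lin-22(ot267)* had 1079, 1127 and 1590.5 normalised counts, *lin-22(ot269)* had 2699, 2704 and 2915 and JR667 had 306, 397 and 213, and the difference of *lin-22(ot267)* minus *lin-22(ot269)* was -1.13 on the log2 scale (edgeR adjusted p = 0.0204, all 3 *lin-22(ot267)* libraries lower). The C-type lectin gene *clec-247* rose in *ot267* larvae, with 90.7, 108 and 141 normalised counts, but not in *ot269* larvae, with 24.6 ± 13.7 (SD, n = 3), against 15.7, 25.9 and 33.1 in JR667, and the difference of *lin-22(ot267)* minus *lin-22(ot269)* was 2.19 (edgeR adjusted p = 0.0177, all 3 *lin-22(ot267)* libraries higher).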

How the results depend on the processing

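The number of rows that differed between *lin-22(ot267)* and JR667 depended on the threshold and on single libraries. It was 1065 (484 higher and 581 lower) at an adjusted p of 0.05, 817 (312 and 505) with the 6 libraries fitted alone, and between 854 and 1694 with 1 library left out, lowest without *lin-22(ot267)* replicate 3. It was 1740 with TMM, 2031 with library totals, 1681 without a filter, 1790 with at least 10 counts in every library, 1439 when only 1 transcript per gene entered the fit and 2510 with DESeq2. Without replicate 3 it was 500 at 0.05. Against *lin-22(ot269)* it was 1303 at 0.05, 2574 with DESeq2 and between 1019 and 1684 with 1 library left out, with 1019 without *lin-22(ot269)* replicate 1, 1090 without its replicate 3 and 1292 without *lin-22(ot267)* replicate 2; against *lin-22(icb38)* it was 2340 at 0.05, 4254 with DESeq2 and between 2297 and 2999 with 1 left out, lowest without *lin-22(icb38)* replicate 2. The split against *lin-22(icb38)* was 2569 higher and 1023 lower with library totals, and against *lin-22(ot269)* 600 and 1255. Of 171 named genes past the threshold, none changed direction in the fits run, and 41 lost the call without *lin-22(ot267)* replicate 3, 27 without JR667 replicate 1, 38 with the 6 libraries alone, 17 with a replicate block and none with TMM or DESeq2. Apart from marker genes, these genes were named because they passed, so a kept direction adds no support. Some genes that did not pass changed sign when 1 library was left out, such as *mec-14* (log2 fold change 0.68, and -0.03 without *lin-22(ot267)* replicate 3).

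Same-numbered replicates of *lin-22(ot267)* and JR667 did not deviate together (correlations 0.00806, -0.0315 and -0.0379, and no library was closest to its own number), so they were not treated as pairs. With 3 libraries per strain, these correlations cannot show whether a batch was shared. With a replicate block the count was 1315 against JR667, 1559 against *lin-22(ot269)* and 2954 against *lin-22(icb38)*. Depth limits rows under 30 normalised counts, of which 50 of 2361 were called, and 12 without replicate 3.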

Other observations

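Rows that name repeat families or other features rather than genes were called about as often as all rows. Of 129 tested, 6 were higher (4.65%) and 4 lower (3.1%) in *ot267* larvae than in JR667, against 4.1% and 4.59% of all rows. Without *lin-22(ot267)* replicate 3 they were 6 and 3. The lower rows included sensor_genome, a name that does not state a repeat family. It averaged 4057 ± 275 normalised counts in *ot267* larvae, 4182 ± 201 in *ot269* larvae and 33834 ± 7913 in *icb38* larvae, against 18776 ± 5315 in JR667 (SD, n = 3 each). The row TC1, which bears the name of the transposon inserted in *unc-119* in JR667, had 256, 252 and 159.9 normalised counts in *ot267* larvae, 202, 279.7 and 298 in *ot269* larvae and 2169, 2559.8 and 2472 in *icb38* larvae, against 1281, 2279 and 1943 in JR667 (log2 fold change of *lin-22(ot267)* against JR667 -3.04, edgeR adjusted p = 1.21e-06). MIRAGE1 had 265, 269.8 and 448 normalised counts in *lin-22(ot267)*, against 105, 91.1 and 106 in JR667 (log2 fold change 1.70, edgeR adjusted p = 0.000591), and MARINER2_CE had 985, 1071 and 724 normalised counts in *lin-22(ot267)*, against 1445, 2453 and 2269 in JR667 (log2 fold change -1.15, edgeR adjusted p = 0.00226). CER2-I_CE, named as a retrotransposon family, had 1232, 1325 and 1047 in *ot267* larvae, 441, 621 and 411 in *ot269* larvae and 450.3, 370.4 and 497 in *icb38* larvae, against 344, 555 and 708 in JR667, with log2 differences of *lin-22(ot267)* of 1.29, 1.45 and 1.17 from these strains (edgeR adjusted p = 0.00236, 0.00081 and 0.00707). Copies of a family share reads, and how the counting treated them is not given in the sources used here.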
